A study of Mus musculus with 4 samples.

Results

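The genes described here are 45 mouse genes of the lysosome, chosen by symbol as its degradative enzymes, the soluble proteins that help them, and proteins of its membrane. All 45 were found in the deposited table, which has 55339 rows, and all 45 were among the 17303 genes tested. Expression was measured by sequencing polyadenylated RNA from leukemia cells of C57BL/6 bone marrow. The tested cells carried the genotype YBX1-/- and are titled cKO (knockout, written KO below, 2 libraries, replicates 1 and 3), and the reference cells were WT (2 libraries, replicates 4 and 5). The labels give no age, no treatment, no leukemia driver and no Cre line, and nothing in them says that the libraries come from separate animals, so the tests measure the spread between these libraries, which may be technical.

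Lysosomes are acidic compartments in which macromolecules delivered by endocytosis, phagocytosis and autophagy are cut into reusable parts. Proteases, glycosidases, sulfatases and lipases share that work, and inherited loss of single enzymes causes storage diseases. Myeloid cells hold many lysosomes and related granules, and many lysosomal genes are known to be under the transcription factor TFEB and its relatives, which bind an extended E-box built on CACGTG. The protein YBX1 binds mRNA through its cold-shock domain. The title of the series places it in the stability of m6A-bearing mRNA in myeloid leukemia.

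E-box letters stood close to the start of many of these genes. The stretches below are examples from members with a match, and not every match is shown. RefSeq windows for GRCm38.p6, from 250 bases before to 50 bases after each annotated start, were found for 39 of the 45 members. Asah1, Ctsb, Ctsh, Galns, Npc1 and Plbd2 had no entry. The first 2 stretches are the 250 bases before the start of Arsa (chr15:89477425-89477674, minus strand) and Lamp1 (chr8:13158911-13159160, plus strand). The other 5 are 30 bases around a match, in Mcoln1 (chr8:3500462-3500491, plus strand), Ctsd (chr7:142387908-142387937, minus strand), Plbd1 (chr6:136661844-136661873, minus strand), Lgmn (chr12:102439124-102439153, minus strand) and Naglu (chr11:101070009-101070038, plus strand). All are printed 5′ to 3′ on the gene's strand, and capitals mark CACGTG.
Arsa: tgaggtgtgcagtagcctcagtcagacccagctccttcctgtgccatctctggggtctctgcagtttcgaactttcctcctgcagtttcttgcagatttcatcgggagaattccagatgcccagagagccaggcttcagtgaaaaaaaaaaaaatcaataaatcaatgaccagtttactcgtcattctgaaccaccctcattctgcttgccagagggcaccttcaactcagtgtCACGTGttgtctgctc
Lamp1: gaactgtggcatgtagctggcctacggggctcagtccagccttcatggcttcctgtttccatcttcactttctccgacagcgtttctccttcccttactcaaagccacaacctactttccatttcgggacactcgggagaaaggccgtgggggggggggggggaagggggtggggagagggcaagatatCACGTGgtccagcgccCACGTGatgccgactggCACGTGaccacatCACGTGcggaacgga
Mcoln1: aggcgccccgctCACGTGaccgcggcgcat
Ctsd: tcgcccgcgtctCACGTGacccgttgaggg
Plbd1: gggcgaaggttggttcccaaggcCACGTGa
Lgmn: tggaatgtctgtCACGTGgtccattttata
Naglu: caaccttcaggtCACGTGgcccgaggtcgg

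CACGTG, which reads the same on both strands, was found in 14 of the 39 members with a window (35.9%), against 11.4% of 11054 tested genes with a window. TCACGTG on either strand, which contains the first motif, was found in 12 members (30.8%), against 6.78% of the tested genes. GTCACGTG on either strand was found in 10 members (25.6%), against 4.6% of the tested genes. The longest form searched, a palindrome that contains GTCACGTG, was found in 0 members, against 0.742% of the tested genes. At so low a rate, its absence from 39 members cannot be told apart from the background. The 21 matches to CACGTG lay mostly near the RefSeq start, 14 of them within the 100 bases before it, in 10 genes. The gene spans given below are from GENCODE and can begin further upstream. The printed matches of Lgmn and Naglu lie inside those spans. Lamp1 held 4 matches, more than any other member. These are matches of letters, not sites shown to be bound, and the genes that hold them lay on both sides of WT in the comparison below. Of the 14 members with CACGTG, 7 had both KO values below WT replicate 5 (background 33.4%) and 3 above (background 41.8%). Their median difference from that library was -0.41 log2. Of the 25 members with a window but no match, 16 lay below and 4 above, with a median of -0.43.

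**Figure D1:**
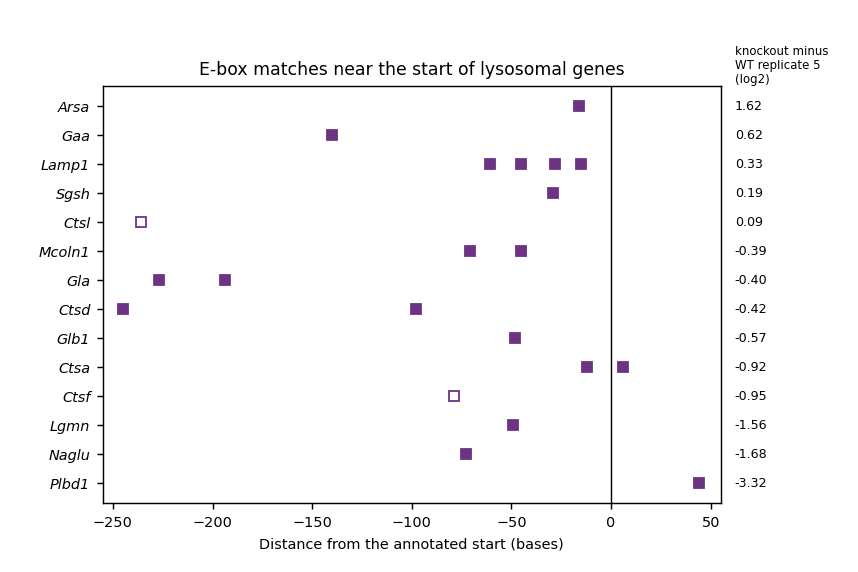
Positions of CACGTG matches within 250 bases before to 50 bases after the RefSeq start of 14 lysosomal genes; filled squares have the flanking base that makes TCACGTG on either strand, open squares do not. The numbers at the right give the KO mean minus WT replicate 5 (log2), and genes with matches range from -3.32 (Plbd1) to 1.62 (Arsa).

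The values are log2 expression as the authors deposited it, without counts, so depth per library is unknown. Whether they are scaled by transcript length is not given in the sources used here, so levels are compared between libraries within a gene and not between genes. Ybx1 itself was at 7.29 and 8.33 in the KO libraries, against 19.70 and 10.002 in WT replicates 4 and 5, lower in both KO libraries than in both WT libraries. Genes of myeloid cells were listed in all 4 libraries, Elane at 16.48 and 16.55 in KO against 23.52 and 15.84 in WT, while of the T cell markers Cd3e, Cd3g, Cd4 and Cd8a were listed at 0 in all of them and Cd3d was at 0.55 and 1.01 in KO against 2.59 and 0.54 in WT. The B cell marker Cd79b was at 7.41 and 7.18 in KO against 5.16 and 6.996 in WT. Fewer cells of one type and less RNA per cell cannot be told apart in bulk RNA.

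One library, WT replicate 4, differed from the remaining 3 over the lysosomal genes and over all tested genes. Over the 45 members Pearson's r was 0.96 between the KO libraries and 0.93 and 0.94 between each of them and WT replicate 5. It was 0.55 to 0.57 between WT replicate 4 and each of the others, as a description over genes of the same libraries. Over all 17303 tested genes r was 0.69 to 0.71 between WT replicate 4 and the others, and 0.93 to 0.96 among those. The members' values in the KO pair differed by a median of 0.32 log2, and those in the WT pair by a median of 1.77. Psap, Acp2, Ctsl and Cd68 were at 20.61, 19.87, 18.73 and 17.92 in WT replicate 4, against 11.03, 9.67, 8.17 and 11.54 in WT replicate 5. In 5 of 45 members WT replicate 4 lay over 3 log2 above WT replicate 5 (background 13.7%). Most other members were lower in WT replicate 4: 28 of 45 lay over 1 log2 below WT replicate 5 (background 30.3%). So did 57.4% of the tested genes that were at 5 to 14 in WT replicate 5.

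The lower values of WT replicate 4 also gathered in bands. Of 9111 tested genes at 5 or more in WT replicate 5, 3308 were between 4.9 and 5.6 in WT replicate 4 and 16 between 6.2 and 6.6, where WT replicate 5 held 728 and 682. The most filled values of WT replicate 4 were 5.35, 7.45, 8.35 and 8.95. Lysosomal genes followed the same bands. In the lowest one, 16 members lay between 4.29 and 6.02 in WT replicate 4 although WT replicate 5 had them anywhere between 4.11 and 10.94. A further 12 lay between 7.16 and 7.72, and 0 between 6.1 and 7.1. What share of the results below comes from this banding was not tested.

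**Figure D2:**
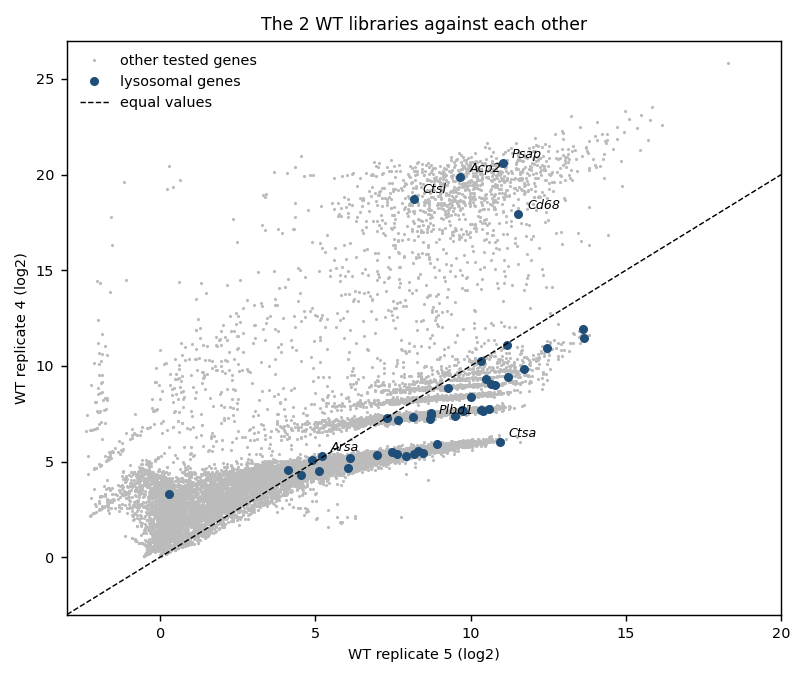
Values of the 17303 tested genes in WT replicate 5 (x axis, log2) and WT replicate 4 (y axis, log2); lysosomal genes are blue and the dashed line marks equal values. Psap, Acp2, Ctsl and Cd68 lie far above the line at 17.92 to 20.61, and most other members lie below it in narrow bands, as do other genes.

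Between Ybx1 KO and WT, the phospholipase gene Plbd1 lay lower and the sulfatase gene Arsa higher in both KO libraries, while the lysosomal genes as a list showed no single direction over all 4 libraries. Against WT replicate 5 alone, most members lay lower in KO, among them 8 of 10 proteases (background 33.4%). Of 7 membrane proteins 3 lay higher, near the background of 41.8%. Limma called none of the 45 members at an adjusted p under 0.05 (background 0% of 17303 genes), and 1 member, Plbd1, had an unadjusted p under 0.05 (background 3.76%). Without WT replicate 4 limma again called 0 members (background 0%), and 8 had an unadjusted p under 0.05, 6 lower and 2 higher (background 10.4%). Without WT replicate 5 it called 15 members, 11 higher (background 14.2%) and 4 lower (background 14.5%).

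With all 4 libraries, both KO values lay below both WT values in 5 of 45 members (background 18.8%) and above them in 8 (background 17.3%). That background depends on level. Of the 9144 genes with log2 of at least 5 in at least 2 libraries, 850 lay below and 2818 above. The same limit applies to the 4-library counts of the lists below. The median limma difference, KO minus WT, was 0.37 log2 over the members and -0.09 over all tested genes. Over the 9144 genes with log2 of at least 5 in at least 2 libraries it was 0.60, so the members did not lie above genes of such levels. Without WT replicate 4, both KO values lay below WT replicate 5 in 27 members (background 33.4%) and above it in 9 (background 41.8%). Among all genes at 5 to 14 in WT replicate 5, the shares were 39.1% and 35.6%. The choice of WT library set the sign for many: 15 members had a limma difference above 0 with all 4 libraries and below 0 without WT replicate 4, and 2 the reverse. The median difference from WT replicate 5 was -0.40 over the members and 0.07 over all tested genes. In 21 members the KO mean lay below WT replicate 5 by more than the KO libraries differed from each other (background 24.4%), and in 7 it lay above it by more than that (background 26.3%). The title of KO replicate 3 begins with another prefix than those of the other 3 libraries, and the labels do not say what the prefix means. Within those 3, which leaves 1 KO library, the members' median difference was 0.52, against -0.002 over all tested genes. Plbd1 differed by -2.50 and Arsa by 1.56 within them. The WT level of replicate 5 is 1 library, so a difference of that library from WT cells in general cannot be told apart from the genotype.

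**Figure D3:**
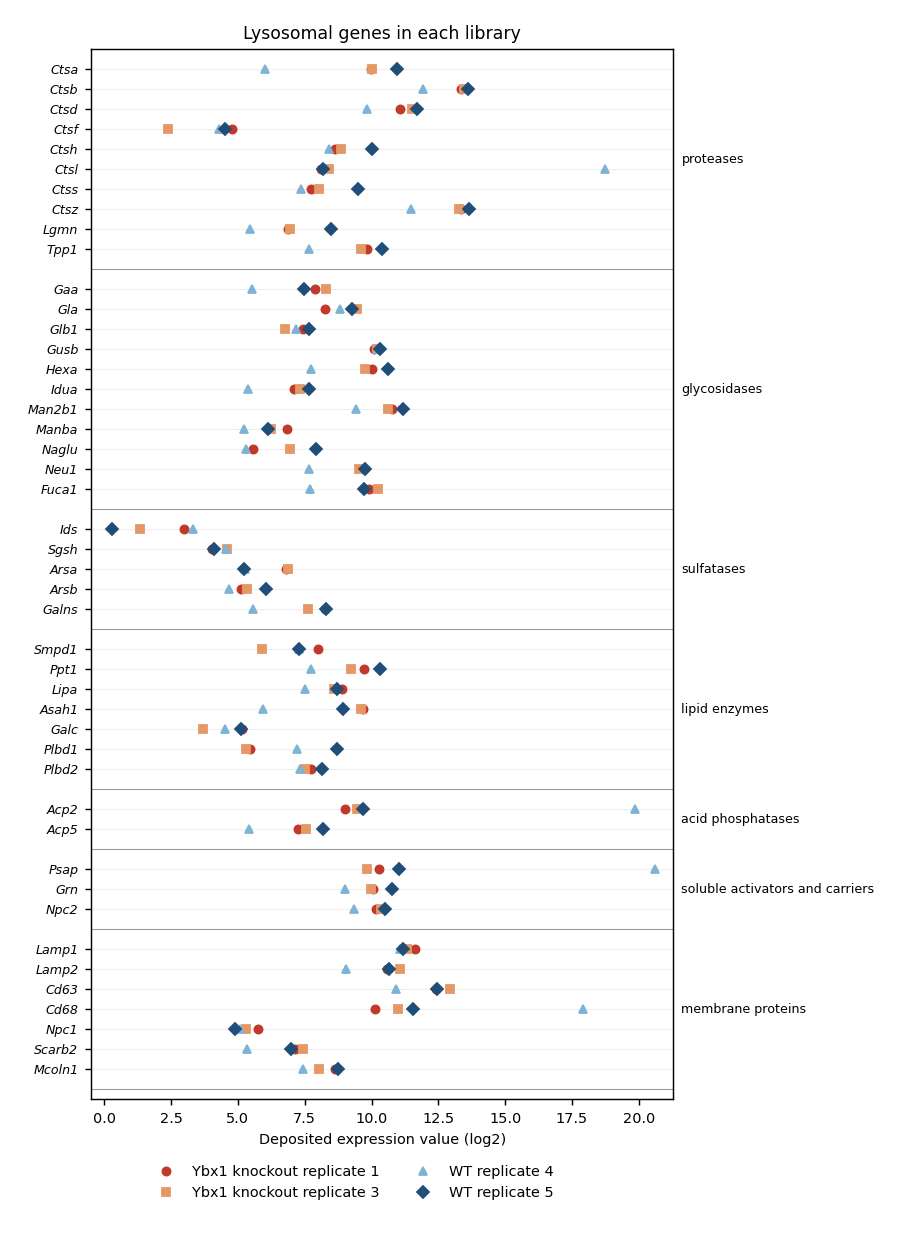
Deposited log2 values of the 45 lysosomal genes, grouped by role, in KO replicate 1 (red circles), KO replicate 3 (orange squares), WT replicate 4 (light blue triangles) and WT replicate 5 (dark blue diamonds). The KO libraries and WT replicate 5 lie close together for most genes, and WT replicate 4 lies apart.

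Among the proteases, 8 of 10 had both KO values below WT replicate 5 (background 33.4%) and 0 above (background 41.8%). Their median difference was -0.81 log2, but 0 of 10 lay on 1 side of both WT libraries (background 18.8% below and 17.3% above). Cathepsin S, which trims the invariant chain in antigen-presenting cells, is encoded by Ctss (chromosome 3, 95526786 to 95556403, GRCm38) and was at 7.72 and 8.05 in KO against 7.38 and 9.495 in WT replicates 4 and 5. The aminopeptidase gene Ctsh (chromosome 9, 90054152 to 90076089) was at 8.65 and 8.87 in KO against 8.40 and 10.01 in WT. Lgmn (chromosome 12, 102394084 to 102439813), whose product cuts after asparagine and matures several cathepsins, was at 6.88 and 6.94 in KO against 5.43 and 8.48 in WT. In all 3 genes the KO values lay between the WT libraries, close to each other and well below WT replicate 5. Their limma differences from WT replicate 5 were -1.61 (SE 0.28), -1.26 (SE 0.22) and -1.56 (SE 0.25), with limma adjusted p-values of 0.474, 0.474 and 0.466. With all 4 libraries they were -0.55, -0.45 and -0.04, and without WT replicate 5 they turned to 0.50, 0.36 and 1.48, the last for Lgmn, whose WT replicate 4 value lies in the lowest band.

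Other proteases lay closer to WT replicate 5. Ctsa, whose product also protects other lysosomal enzymes in a complex, was at 9.998 and 10.03 in KO against 6.02 and 10.94 in WT. Its KO values were nearly equal, 0.92 below WT replicate 5, and its unadjusted limma p without WT replicate 4 was 0.0227. The tripeptidyl peptidase gene Tpp1 lay 0.70 below WT replicate 5, the aspartic protease gene Ctsd 0.42 below, the carboxypeptidase gene Ctsz 0.33 below and the cysteine protease gene Ctsb 0.19 below. With all 4 libraries the limma differences of these genes had the other sign, 1.54 for Ctsa, 0.68 for Tpp1, 0.51 for Ctsd, 0.75 for Ctsz and 0.66 for Ctsb. Without WT replicate 5, limma called Ctsa, Tpp1, Ctsz and Ctsb higher in KO. Ctsl, at 8.12 and 8.40 in KO against 18.73 and 8.17 in WT, lay on both sides of WT replicate 5 and was called lower without that library. Ctsf was at 4.77 and 2.38 in KO against 4.29 and 4.52 in WT, and its KO values differed by 2.39, the widest gap of any member.

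Of 7 lipid enzymes, 3 had both KO values below WT replicate 5 (background 33.4%) and 1 above (background 41.8%). Plbd1 (chromosome 6, 136612070 to 136661928, minus strand, GRCm38), a phospholipase B-like hydrolase gene, was at 5.46 and 5.30 in the KO libraries, against 7.21 and 8.69 in WT replicates 4 and 5. The groups did not overlap, and the gap of 1.75 between them was wider than the differences within the KO pair (0.16) and the WT pair (1.48). The KO mean was 5.38 ± 0.11 (SD, n = 2) and the WT mean 7.95 ± 1.05 (SD, n = 2). The limma difference was -2.57 (SE 0.79) with an adjusted p of 0.826, and -3.32 (SE 0.33) (adjusted p = 0.466) once WT replicate 4 was left out, a level 9.96-fold lower than in WT replicate 5. Plbd2, its paralog, was at 7.73 and 7.50 in KO against 7.33 and 8.14 in WT, between the WT libraries.

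Asah1 (chromosome 8, 41340197 to 41374773), the acid ceramidase gene, lay on the other side, at 9.66 and 9.61 in KO against 5.93 and 8.92 in WT. Its KO values differed by 0.05 and lay above both WT libraries, and its limma difference was 0.72 (SE 0.19, adjusted p = 0.477) without WT replicate 4. With all 4 libraries it was 2.22 (SE 1.203, adjusted p = 0.826), a size that rests on the low value of WT replicate 4, and without WT replicate 5 it was 3.71 and passed (adjusted p = 0.0112). Ppt1, a palmitoyl-protein thioesterase gene, was at 9.73 and 9.24 in KO against 7.72 and 10.32 in WT, between the WT libraries. Lipa, the acid lipase gene, differed from WT replicate 5 by 0.03 and by 0.63 with all 4 libraries. Smpd1 and Galc, which encode acid sphingomyelinase and galactosylceramidase, had KO values 2.08 and 1.45 apart and lay on both sides of WT replicate 5.

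**Figure D4:**
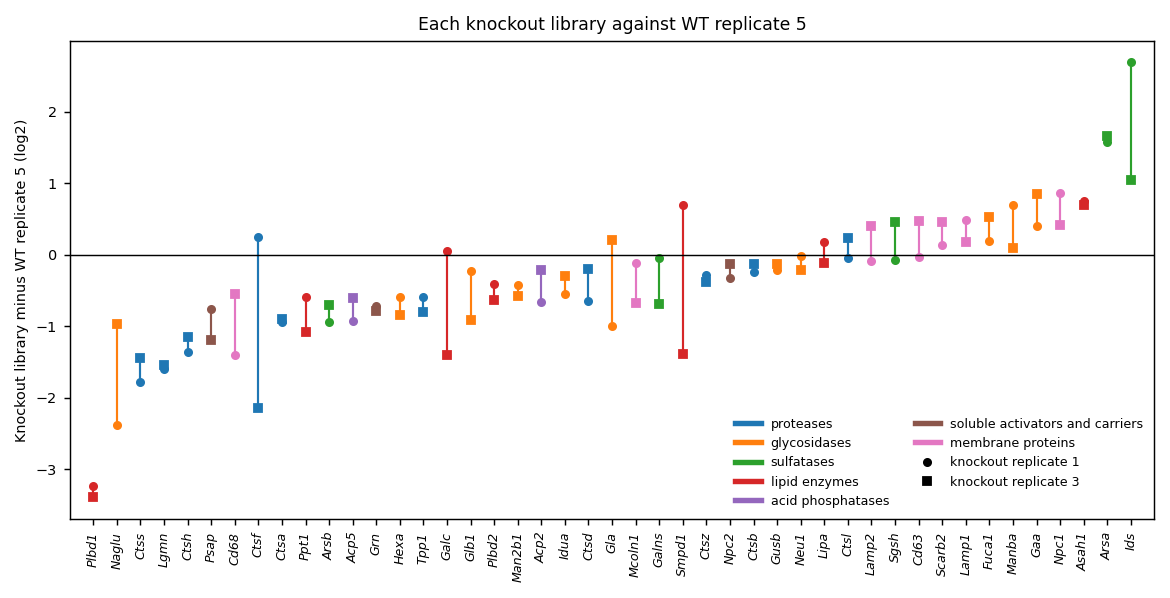
Each KO library minus WT replicate 5 (log2) for the 45 lysosomal genes, ordered by the KO mean and coloured by role; circles are KO replicate 1, squares replicate 3. Plbd1 lies lowest at -3.32 and Arsa and Ids highest at 1.62 and 1.87, and Ids, Ctsf and Smpd1 have KO values far apart.

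Among the sulfatases, which take sulfate off glycosaminoglycans and sulfolipids, 2 of 5 had both KO values above WT replicate 5 (background 41.8%). Another 2 lay below it (background 33.4%). Arsa (chromosome 15, 89472476 to 89477425, minus strand, GRCm38) encodes arylsulfatase A, which cleaves sulfatide, and was at 6.80 and 6.88 in KO against 5.27 and 5.22 in WT. Both pairs agreed closely, and 1.53 log2 lay between the groups without overlap. The KO mean was 6.84 ± 0.06 (SD, n = 2) and the WT mean 5.24 ± 0.04 (SD, n = 2). The limma difference was 1.60 (SE 0.64, adjusted p = 0.826) with all 4 libraries and 1.62 (SE 0.34, adjusted p = 0.474) without WT replicate 4, a 3.08-fold higher level, and it stayed between 1.56 and 1.64 without each library in turn. In WT replicate 4 it belongs to the lowest band, where members of very different levels in WT replicate 5 lie together.

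Ids, the iduronate sulfatase gene, was at 2.99 and 1.35 in KO against 3.31 and 0.30 in WT. Its values were low and scattered in both groups, and they overlapped. Arsb was at 5.12 and 5.35 in KO against 4.65 and 6.05 in WT, Galns lay 0.37 below WT replicate 5 but differed by 1.01 with all 4 libraries, and Sgsh lay on both sides of WT replicate 5.

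Glycosidases lay on both sides: 7 of 11 had both KO values below WT replicate 5 (background 33.4%) and 3 lay above it (background 41.8%). The median difference was -0.40. Naglu (chromosome 11, 101070012 to 101077672), which removes N-acetylglucosamine from heparan sulfate, was at 5.55 and 6.96 in KO against 5.31 and 7.93 in WT. Its KO mean lay 1.68 below WT replicate 5, but the KO libraries differed by 1.42 (limma adjusted p = 0.583 without WT replicate 4). The acid glucosidase gene Gaa, for lysosomal glycogen, was at 7.88 and 8.31 in KO against 5.51 and 7.47 in WT. Fuca1, the fucosidase gene, was at 9.90 and 10.24 in KO against 7.705 and 9.72 in WT. Both lay above both WT libraries, by a limma difference of 0.62 and 0.35 without WT replicate 4 (adjusted p = 0.599 and 0.676) and of 2.58 and 2.37 without WT replicate 5 (adjusted p = 0.0364 and 0.0267).

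Manba, the mannosidase gene, also lay above both WT libraries, at 6.82 and 6.23 in KO against 5.21 and 6.13 in WT, with 0.10 between the groups. Gusb, the glucuronidase gene, was nearly level at 10.10 and 10.19 in KO against 10.26 and 10.32 in WT. Its groups did not overlap, but only 0.06 lay between them, and its limma difference of -0.14 became 0.25 after quantile normalization. Of the remaining glycosidases, Hexa, Glb1, Man2b1, Idua and Neu1 had both KO values below WT replicate 5, by 0.72, 0.57, 0.50, 0.43 and 0.12 in the mean. With all 4 libraries the limma differences of Hexa, Man2b1, Idua and Neu1 were 0.72, 0.39, 0.71 and 0.93, and that of Glb1 was -0.32. Without WT replicate 5, limma called Hexa, Man2b1 and Neu1 higher in KO. Gla lay on both sides of WT replicate 5.

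All 3 soluble activators and carriers and both acid phosphatases had both KO values below WT replicate 5 (background 33.4%). Psap (chromosome 10, 60277627 to 60302597), the precursor of the saposins that present lipids to hydrolases, was at 10.27 and 9.84 in KO against 20.61 and 11.03 in WT. Acp2, a lysosomal acid phosphatase gene, was at 9.001 and 9.46 in KO against 19.87 and 9.67 in WT. Both lay below both WT libraries, and the sizes depend on which WT library is used. The limma differences of Psap and Acp2 were -0.98 and -0.44 without WT replicate 4 (adjusted p = 0.491 and 0.673), and -10.55 and -10.64 without WT replicate 5 (adjusted p = 0.00618 and 0.00616). Grn, the progranulin gene, was at 10.05 and 9.98 in KO against 9.001 and 10.77 in WT, and was called higher without WT replicate 5. Npc2, a cholesterol carrier gene, lay 0.23 below WT replicate 5 but differed by 0.34 with all 4 libraries, and Acp5, the tartrate-resistant phosphatase gene, was at 7.24 and 7.56 in KO against 5.40 and 8.17 in WT.

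Of 7 membrane proteins, 3 had both KO values above WT replicate 5 (42.9%, near the background of 41.8%) and 2 below (background 33.4%). The median difference was 0.21. Lamp1, a main glycoprotein of the lysosomal membrane, was at 11.64 and 11.35 in KO against 11.08 and 11.16 in WT. Scarb2, the sorting receptor of glucocerebrosidase, was at 7.12 and 7.43 in KO against 5.33 and 6.98 in WT. The cholesterol exporter gene Npc1 was at 5.75 and 5.31 in KO against 5.09 and 4.89 in WT. These 3 lay above both WT libraries, by 0.19, 0.14 and 0.22 between the nearest values, and limma called none of them.

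Cd68, a glycoprotein gene of macrophage lysosomes, was at 10.13 and 10.9996 in KO against 17.92 and 11.54 in WT, below both WT libraries. Its KO mean lay 0.97 below WT replicate 5 (limma adjusted p = 0.595 without WT replicate 4), and the limma difference of -7.35 without WT replicate 5 passed (adjusted p = 0.0153). The calcium channel gene Mcoln1 lay 0.39 below WT replicate 5, with both KO values below it, but differed by 0.24 with all 4 libraries. Lamp2 and Cd63, at 10.57 and 11.06 and at 12.41 and 12.92 in KO, against 10.65 and 12.45 in WT replicate 5, lay on both sides of it.

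In the authors' deposited table, 2 of the 45 members were called lower in KO at an adjusted p under 0.05 (background 3.83% of 20610 genes with a fold change) and 0 higher (background 0.131%). For Plbd1 the deposited log2 fold change was -3.29 with an adjusted p of 0.000400, and for Cd68 it was -6.21 with an adjusted p of 0.0119. The authors' deposited table lists a p-value of 1 for 6 members (background 7.59%), among them Psap, Acp2 and Ctsl with deposited log2 fold changes of -9.59, -9.52 and -9.47. Its fold changes ran in the direction of KO minus WT across 17185 tested genes (Pearson's r = 0.78), but the signs were opposite in 13 of the 45 members (28.9%), against 15.7% of those genes. Asah1 is one of them, with a deposited log2 fold change of -1.12 although both KO values lie above both WT values.

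Genes that act on the lysosomal enzymes were read from lists by role, and limma called 0 genes in each of the 6 lists, with 0 at an unadjusted p under 0.05. The endogenous inhibitors of cysteine cathepsins, the cystatins and stefins, lay lowest. Of 9, 7 had both KO values below WT replicate 5 (background 33.4%) and 1 above (background 41.8%). Their median difference was -1.70, and 5 lay below both WT libraries (background 18.8%). Without WT replicate 4, limma gave 5 of them an unadjusted p under 0.05 and called none. The stefin gene Stfa2l1 was at 7.74 and 8.10 in KO against 9.24 and 9.62 in WT. BC100530, another stefin gene, was at 11.01 and 10.51 in KO against 18.65 and 13.03 in WT. Stfa3, Stfa2 and Stfa1, singled out after their values had been seen, were 3.40, 2.04 and 1.81 below WT replicate 5. In the authors' deposited table, 6 of the 9 were called lower in KO (background 3.83%) and 0 higher (background 0.131%). They include Cst3, the cystatin C gene, at 11.90 and 12.32 in KO against 18.97 and 11.72 in WT, above WT replicate 5 in both KO libraries, and Cstb, which lay on both sides of it. The stefin genes are near copies of each other on chromosome 16, so reads may have been split between them, and their single values are uncertain. Cst6 was at 0.99 and 1.80 in KO against 2.66 and 2.31 in WT, and Cstb, the cystatin B gene, at 9.64 and 10.74 against 18.72 and 10.15.

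Sorting genes included a pair of receptors that lay lower in both KO libraries than in both WT libraries. Igf2r, the large mannose 6-phosphate receptor that carries enzymes to the lysosome, was at 6.13 and 5.37 in KO against 7.15 and 7.31 in WT. The endocytic receptor gene Lrp1 was at 5.86 and 5.73 in KO against 7.02 and 7.27 in WT. The KO means lay 1.56 and 1.48 below WT replicate 5. The adaptor subunit genes Ap1b1, Ap1g1 and Ap1s1 lay above both WT libraries, Ap1b1 at 8.58 and 8.44 in KO against 5.64 and 7.87 in WT. Ap1g1 was at 7.49 and 7.38 in KO against 5.41 and 6.77 in WT. Neither direction held for all genes of its kind. The adaptor subunit gene Ap1m1 had both KO values between the WT libraries. The receptor genes M6pr, Sort1 and Sorl1 lay on both sides of WT replicate 5. Of the 18 sorting genes 6 had both KO values below WT replicate 5 (background 33.4%) and 7 above (background 41.8%). With all 4 libraries 2 lay below (background 18.8%) and 7 above (background 17.3%) both WT values. Of genes with log2 of at least 5 in at least 2 libraries, 2818 of 9144 lay above.

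Of 28 tested further lysosomal enzymes and membrane proteins, 15 lay below WT replicate 5 (background 33.4%) and 7 above (background 41.8%). With all 4 libraries 5 lay on each side (background 18.8% below and 17.3% above). Hgsnat was at 9.89 and 9.94 in KO against 8.46 and 8.62 in WT, and acts in the same heparan sulfate pathway as Naglu. The transporter gene Abca2 was at 6.30 and 5.73 in KO against 4.93 and 2.96 in WT. Mfsd8 was at 8.02 and 7.55 in KO against 5.44 and 7.23 in WT. All 3 lay above both WT libraries, while 5 other genes of the list lay below both. The deposited log2 fold change of Hgsnat had the other sign, at -3.14.

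Of 26 genes of TFEB and mTORC1 signalling at the lysosome, 10 lay below WT replicate 5 (background 33.4%) and 9 above (background 41.8%). With all 4 libraries 3 lay below (background 18.8%) and 5 above (background 17.3%). The folliculin partner gene Fnip2 was at 6.67 and 5.67 in KO against 13.35 and 7.72 in WT. Mitf, a relative of TFEB, was at 6.26 and 6.27 in KO against 5.18 and 5.46 in WT. The remaining pair also lay above both WT libraries, as Mitf did. The kinase gene Mtor was at 6.976 and 6.976 in KO against 5.21 and 6.603 in WT. Nprl2, of the GATOR complex that restrains mTORC1, was at 6.83 and 6.45 in KO against 5.09 and 6.16 in WT.

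Of 18 tested proton pump subunits 5 lay below WT replicate 5 (background 33.4%) and 5 above (background 41.8%). With all 4 libraries 2 lay below (background 18.8%) and 1 above (background 17.3%). The exception above both WT libraries was Atp6v0a2, at 9.35 and 8.66 in KO against 5.71 and 8.08 in WT. Atp6v1f was at 10.02 and 10.59 in KO against 6.06 and 10.09 in WT, and Atp6v1g1 was at 9.95 and 10.52 in KO against 6.08 and 10.10 in WT. Atp6v1c1 was at 10.15 and 9.999 in KO against 6.03 and 10.16 in WT. These 3 lay close to WT replicate 5 and well above WT replicate 4.

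Of 25 autophagy genes 9 lay below WT replicate 5 (background 33.4%) and 8 above (background 41.8%). With all 4 libraries 2 lay below (background 18.8%) and 5 above (background 17.3%). The conjugation gene Atg3 was at 10.75 and 10.89 in KO against 6.17 and 10.38 in WT, and Atg16l1 was at 7.65 and 7.39 in KO against 5.39 and 7.18 in WT. Both lay above both WT libraries. The lipid kinase gene Pik3c3 was at 7.63 and 7.396 in KO against 18.22 and 7.86 in WT, and its partner Uvrag was at 7.97 and 7.53 in KO against 18.79 and 7.897 in WT. Their distance from WT was wide to replicate 4 and small to replicate 5.

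**Figure D5:**
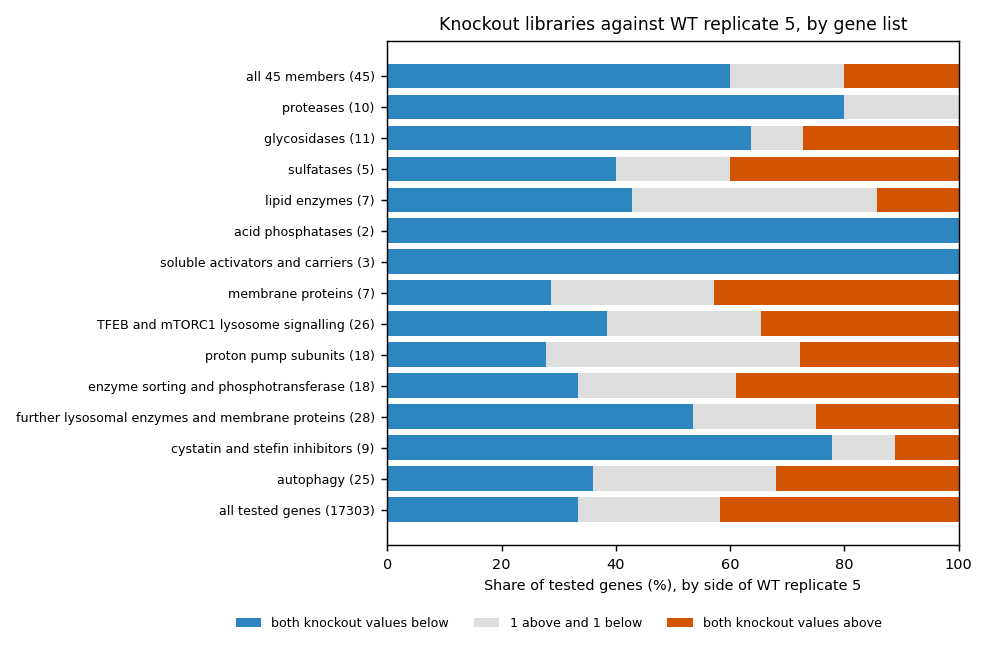
Share of tested genes (%) in each list with both KO values below WT replicate 5 (blue), above it (orange) or with 1 on each side (grey); the number of tested genes is in parentheses. Proteases (80.0% below) and cystatins and stefins (77.8% below) lie furthest from all tested genes (33.4% below), apart from the lists of 2 and 3 genes.

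Neutrophil markers also lay lower. Of 8, 6 had both KO values below WT replicate 5 (background 33.4%) and 0 above (background 41.8%), and 4 lay below both WT libraries (background 18.8%). Their median difference was -1.22, and their summed linear values were 24320 and 27332 in KO against 4378370 and 88804 in WT replicates 4 and 5. Such sums lean on the genes with the highest values, and the scale between genes is unknown. The highest here was Ngp, at 14.15 and 14.19 in KO against 21.81 and 15.71 in WT. Mmp8 and Retnlg, of the same list, differed from WT replicate 5 by 0.008 and -0.006. Monocyte and macrophage markers depended on the WT library. Of 5 monocyte markers 3 lay below WT replicate 5 (background 33.4%) and 0 below both WT libraries (background 18.8%). Their sums were 4239 and 3852 in KO against 695 and 4507 in WT. Of 6 tested macrophage markers, out of 10 on the list, 3 lay below WT replicate 5, 1 above it (background 41.8%) and 1 below both WT libraries. Their sums were 2395 and 1469 in KO against 469 and 2487 in WT. Of 7 myeloid progenitor genes 3 lay below WT replicate 5 and 1 above. C1qa, Mrc1, Mertk and Cd5l, the other 4 macrophage markers, had no deposited fold change, and neither did the osteoclast protease gene Ctsk. The part of such cells in the lysosomal results was not tested.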

How the data were processed

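Polyadenylated RNA of leukemia cells from bone marrow was sequenced in 2 YBX1-/- and 2 WT libraries. The values are log2 expression per gene as the authors deposited it, and the deposited table adds its own log2 fold change with raw and adjusted p-values; the normalization is not given in the sources used here, and no counts were used, so depth is unknown and its precision cannot be stated. Per the submitters' processing notes, DESeq2, featureCounts, HISAT2 2.1.0 and CASAVA were used with GRCm38; roles are not given. Of 55339 rows, 30280 were 0 in all libraries; genes with log2 of at least 0 in at least 2 libraries were tested (17303). KO minus WT was fitted with limma 3.58.1 in R 4.3.3 with a mean-variance trend, two-sided, with Benjamini-Hochberg adjustment over all tested genes and a threshold of 0.05; the code was tested on simulated data. A second fit left out WT replicate 4. Positions are GENCODE vM21 and promoter windows RefSeq GRCm38.p6. Values per library are given for members on 1 side of both WT libraries or at least 1 log2 from WT replicate 5 on 1 side, with the other members summarised or given as contrast, and for the 4 genes of each pathway list with the lowest limma p, of which 1 is not reported here. The members and lists were chosen with earlier results of these data known. Alternatives were another filter, no filter, a pseudocount, centring, quantile normalization, no trend and leaving out each library.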

Additional observations from a re-analysis of the deposited data

How the results depend on the processing

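No paired analysis was possible because the KO and WT libraries share no replicate numbers. Where a library was left out, the lone library of its group was assumed to vary like the other group. Limma calls over all tested genes were 0 with 4 libraries and between 0 and 4960 without each library in turn, the highest without WT replicate 5; without KO replicate 1 or 3 there were 26 and 88. Calls among the 45 members ranged from 0 to 15. The members' median difference was 0.37 with 4 libraries, between -0.40 and 1.01 without each library, and -0.43 without WT replicate 4 after quantile normalization; with 4 libraries it was 0.24 after median centring and 0.10 after quantile normalization. The median over all tested genes was -0.09, and -0.23, 0.16 and 0.60 after centring, quantile normalization and a floor of log2 5. Members with every KO value in the fit below every WT value numbered 5, and 7 to 27 without each library. Without WT replicate 4 there were 24 after centring and 26 after quantile normalization. Members higher numbered 8, and 9 to 32. Of all 17303 tested genes, 3248 lay lower with 4 libraries and 4356 to 8772 without each library. Those higher numbered 3000, and 4112 to 7239 without each library. These ranges are also the background for the lists that follow. Without each library, genes lower and higher numbered 3 to 10 and 8 to 17 in TFEB and mTORC1 signalling, 2 to 7 and 3 to 10 in the proton pump, 2 to 6 and 7 to 13 in sorting, 6 to 15 and 7 to 19 in the further lysosomal genes, 5 to 7 and 0 to 2 in cystatins and stefins, and 5 to 9 and 8 to 14 in autophagy. Of all 45 members, 17 changed sign between the fit with 4 libraries and that without WT replicate 4. Ranges over the fits without each library were read only for genes chosen by the rule for giving values per library. Among these, differences changed sign in Ctsh (-1.26 to 0.36), Ctss (-1.61 to 0.50), Lgmn (-1.56 to 1.48), Naglu (-1.68 to 0.95), Ids (-1.14 to 1.87), Cstb (-8.53 to 0.036) and Atp6v1c1 (-0.086 to 4.04). Without WT replicate 4, Cstb was at 0.11 after centring and 0.019 after quantile normalization, and Atp6v1c1 at -0.010 and -0.090; with 4 libraries Gusb was at 0.25 after quantile normalization. The cause was not tested. Ids and Cst6 gave no value above a floor of log2 5.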
